A study of Mus musculus with 17 samples.

Results

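Insulin and insulin-like growth factor (IGF) signalling was followed through 9 genes: the ligands Igf1 and Igf2, the receptors Insr, Igf1r and Igf2r, the adaptors Irs1 and Irs2, the PI3-kinase subunit Pik3r1 and the transcription factor Foxo3. They were found by gene symbol and Ensembl identifier among the 46880 genes that 3 tables of RNA sequencing counts have in common, and all 9 were present. Of these genes, 6 carried at least 12 counts in each of 17 libraries of mouse fetal liver cells. Igf1, Igf2 and Irs1 were at or close to 0 in most libraries, and the filter on low counts kept them out of the main tests. An alternative without that filter could include them, and their values there are not given.

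The embryos were at day E12.5 to 13.5. Their strain, on the background B6J.129(Cg), carried the allele Gt(ROSA)26Sortm1.1, in which a CAG promoter at the Rosa26 locus drives cas9* and EGFP (laboratory code Fezh/J). In 5 groups the cells carried sgGata1, a guide RNA targeting Gata1, and the study names such cells Gata1s after the short form of the GATA1 protein. A second transgene set these groups apart: LUC (luciferase, n = 3) and Arid3a (n = 3) after 48 h of doxycycline at 1 µg/mL, and sh-ctrl (a control hairpin, n = 3), shArid3a (a hairpin against Arid3a, n = 2, numbered 1 and 3) and miR-125b (n = 3) after 10 days at the same dose. The WT group (n = 3) carried a guide and a hairpin against luciferase, sgLuc and shLuc, and had no doxycycline. Cas9 was thus shared by all groups, sgGata1 by all but WT, and the WT libraries differ from every other group in guide, doxycycline and table at once, which cannot be told apart. The labels do not say whether libraries came from separate cultures or animals, so the p-values below measure the spread between these libraries, which may be technical.

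Insulin binds the insulin receptor (INSR), and IGF1 and IGF2 bind the IGF1 receptor (IGF1R). Both receptors are tyrosine kinases that phosphorylate the adaptors IRS1 and IRS2, which recruit PI3-kinase through its regulatory subunit p85alpha, the product of Pik3r1. The kinase AKT then acts downstream and keeps FOXO transcription factors such as FOXO3 out of the nucleus. The IGF2 receptor (IGF2R), also known as the cation-independent mannose 6-phosphate receptor, has no kinase and carries IGF2 to lysosomes. Igf2 and Igf2r are imprinted, Igf2 expressed mainly from the paternal allele and Igf2r in mouse mainly from the maternal one. IGF signalling is known for its part in the growth of fetal megakaryocytic progenitors.

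The microRNA of 1 group pairs with messenger RNAs chiefly through its seed, so its sequence is shown with the matching sites in these genes. The labels give the name miR-125b without locus or arm. The mature 5p strand is identical at Mir125b-1 (chr9:41581940-41581961, plus strand) and Mir125b-2 (chr16:77646279-77646300, plus strand; RefSeq, GRCm38.p6). The seed, bases 2 to 8, is in capitals.
mmu-miR-125b-5p: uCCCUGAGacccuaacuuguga

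A match to this seed was searched for on the transcript strand in the longest annotated 3′ untranslated region (UTR) of each gene (GENCODE M21, GRCm38). The letters were CTCAGGGA (8mer), CTCAGGG (7mer-m8) and TCAGGGA (7mer-A1), and a 7mer inside an 8mer was not counted again. Of 21027 genes, 4.6% held an 8mer and 19.5% held any match. No 8mer lay in any of the 9 genes. Igf1r, Pik3r1, Irs1 and Foxo3 held a single 7mer each, shown in capitals at the end of 30 bases of the UTR, because these are the only matches in the set.
Igf1r (chr7:68229702-68229731, plus strand): ggttcctcttggaggtacagcggTCAGGGA
Pik3r1 (chr13:101681557-101681586, minus strand): ctctttttagaagctcttcccttTCAGGGA
Irs1 (chr1:82234750-82234779, minus strand): tatttcttgctaactttcaaaggTCAGGGA
Foxo3 (chr10:42184199-42184228, minus strand): tgctgcaccctgggtggaatgtCTCAGGGt

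Insr (4747 bases of UTR), Igf2r (1304 bases) and Irs2 (2329 bases) held none of the 3 strings, and neither did Igf1 or Igf2. Long UTRs hold such strings more often: of genes with a UTR within 20% of the length of that of Igf1r, 62.1% had a match, against 20.2% for the length of Igf2r, 49.8% for Insr and 32.9% for Irs2. A match is a string of letters and no measured site.

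Promoters were read for all of the 9 genes but Insr from RefSeq (GRCm38.p6), over 250 bases before to 50 after the start. The strings searched, 3 in number and read on both strands, were TGTTTTG, the core of the insulin response element to which FOXO factors are known to bind, GTAAACA, the forkhead core, and AGATAA, the core bound by such zinc finger factors as the guide's target. The first was found in Irs1 and Irs2 only, and the others in none of these windows, which do not cover Insr. They occur in 6.28%, 3.65% and 11.18% of 32851 promoters. The 130 bases before the start are shown for both genes, with TGTTTTG in capitals, because they share the string while their levels differ widely. It begins 37 bases before the RefSeq start of Irs2, and 111 and 32 bases before that of Irs1. In GENCODE the Irs2 gene begins further downstream, at chr8:11008458, so the distance depends on the annotation.
Irs2 (chr8:11008930-11009059, minus strand): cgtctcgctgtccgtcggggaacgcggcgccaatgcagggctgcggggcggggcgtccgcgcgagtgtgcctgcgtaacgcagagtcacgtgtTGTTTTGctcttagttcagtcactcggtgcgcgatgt
Irs1 (chr1:82291440-82291569, minus strand): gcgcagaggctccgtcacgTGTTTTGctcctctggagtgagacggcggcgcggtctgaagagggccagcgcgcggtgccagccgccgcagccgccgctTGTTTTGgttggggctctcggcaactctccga

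Library totals were 31339238 to 38678649 counts in the table of LUC and Arid3a, 31992089 to 40859301 in that of sh-ctrl, shArid3a and miR-125b, and 16362439 to 19212193 for WT. Levels are in CPM, counts relative to the size of the library, with TMM scaling over all 17 libraries, and tests were made within a table only. Arid3a was not called higher in the libraries labelled Arid3a (log2 fold change 0.08, SE 0.12, edgeR adjusted p = 0.737). Over 14 alternatives the value ran from −0.02 (without replicate 3) to 0.21, and it was called in 0 of them. By library it was at 53.15, 68.9 and 74.2 CPM, against 61.9, 59.0 and 64.2 in LUC. Replicate 1 thus lay below all LUC libraries, and replicates 2 and 3 above them. Directions there belong to the label and not to a measured rise. Arid3a fell in shArid3a (−1.43, SE 0.20, adjusted p = 0.0368) and in miR-125b (−2.56, SE 0.18, adjusted p = 0.000282). The call in shArid3a was lost without either shArid3a library, without sh-ctrl replicate 2 or 3, without miR-125b replicate 2 or 3, and with ribosomal RNA-like genes left out, with adjusted p of 0.0524 to 0.461. Gata1, the gene cut by the guide, was at 232 to 593 CPM in the Gata1s libraries and at 61.8 to 72.9 in WT, and a count over the whole gene does not read the short form. Hepatoblast markers, the genes of the liver's own cells, summed to at most 8.85 CPM in any group, with Alb, Ttr, Fgb, Fga, Fgg, Serpina1a and Ahsg at 0 in WT. Megakaryocyte and platelet markers summed to 3090 to 5620 CPM in the Gata1s libraries and 1440 to 1650 in WT. Myeloid markers summed to 15600 to 20900 CPM in WT against 8.62 to 184 elsewhere, and macrophage markers to 323 to 387 against at most 8.52, with each of the 11 macrophage genes detected in at least 1 WT library.

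Igf1 (ENSMUSG00000020053, chr10:87858265-87937042, plus strand) was seen at 11.7, 9.94 and 18.1 CPM in the 3 WT libraries, from 211, 209 and 389 counts. In the 14 Gata1s libraries it had 0 to 7 counts and at most 0.18 CPM, and it was at 0 in all shArid3a and miR-125b libraries. The WT libraries stood apart from every other library, and the 5 Gata1s groups overlapped one another. Where the count was 0, up to 3 counts would be compatible with it, or 0.0734 to 0.0958 CPM in these libraries by library total, a limit that covers counting error only.

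Igf2 (ENSMUSG00000048583, chr7:142650766-142666816, minus strand) was at 3.73, 5.23 and 5.44 CPM in WT, from 67, 110 and 117 counts. It was at 0 in 13 of the 14 Gata1s libraries, and replicate 1 of the libraries labelled Arid3a had 3 counts. Igf2 shares exons with Gm49394 and Igf2os, so reads there could have been left out or split. H19, the imprinted noncoding neighbour of Igf2, was at 51.9, 63.0 and 45.7 CPM in WT and at no more than 0.12 in any Gata1s library.

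Genes that handle IGF messenger RNA followed the same split in part. Igf2bp1, an RNA-binding protein of IGF2 transcripts, was at 18.0, 19.9 and 21.2 CPM in WT and at 0.09 or less elsewhere. Igf2bp2 was at 41.9, 58.7 and 55.2 CPM in WT and at 0.43 or less elsewhere. Igf2bp3 differed from its paralogs in that it was read in all groups, at 60.6, 85.0 and 82.1 CPM in WT, 50.7 to 58.1 in LUC and Arid3a, and 9.17 to 37.3 in the 10-day groups. The higher myeloid and macrophage marker sums of WT given above go with these levels. So do those of mast cells and basophils (1980 to 2210 CPM in WT against 206 to 1130 elsewhere), stem and progenitor cells (926 to 987 against 226 to 381) and endothelium (46.2 to 51.8 against 3.08 to 20.3). The part of these cells in the levels was not tested. In bulk samples such as these, fewer cells of a type and less RNA per cell cannot be told apart.

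**Figure D1:**
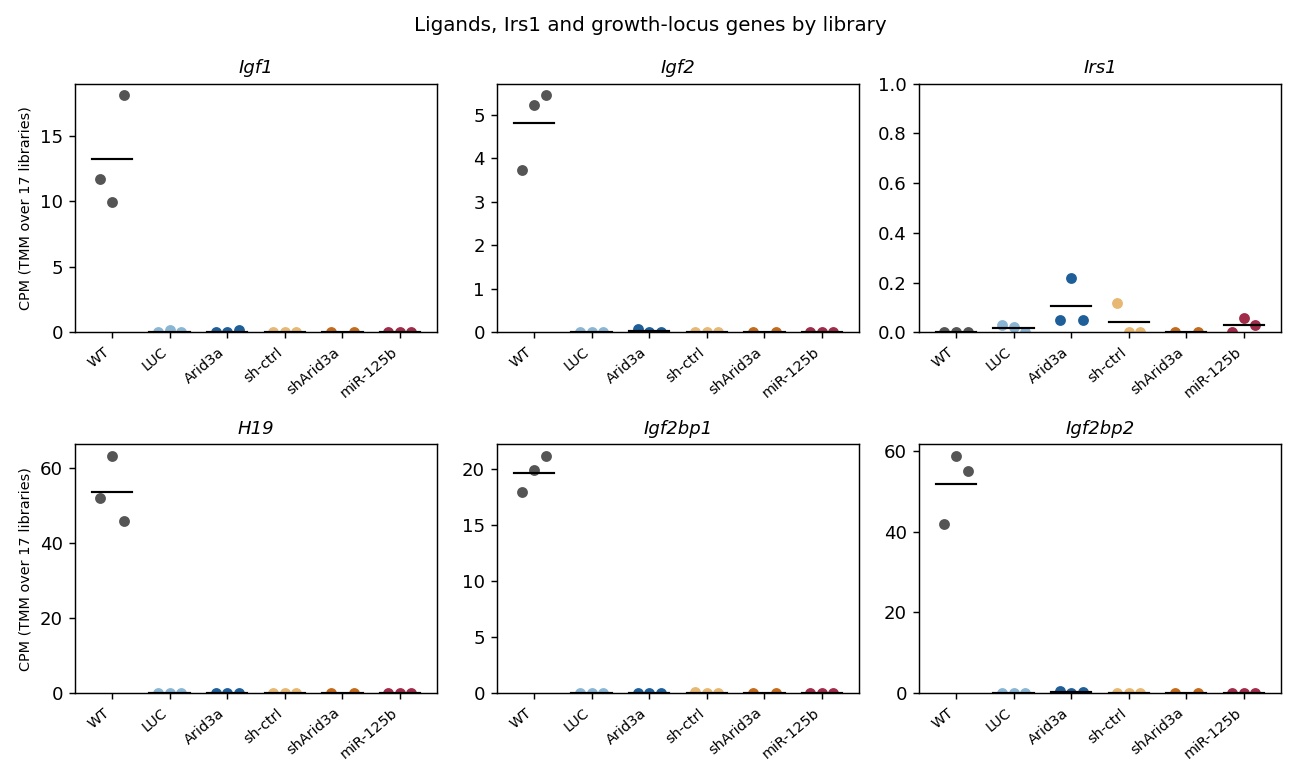
CPM (y axis, linear; TMM over 17 libraries) of Igf1, Igf2, Irs1, H19, Igf2bp1 and Igf2bp2 in each library by group (x axis); points are libraries and lines are group means. All but Irs1 were seen in the 3 WT libraries and lay at 0.43 CPM or less in the 14 Gata1s libraries, while Irs1 stayed at 0.22 CPM or less in every library.

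Among genes of the pathway, levels can be compared only per length. Per kb of exon in the LUC controls, Foxo3 had a mean of 11.1 CPM, Igf1r 9.16, Pik3r1 7.51, Igf2r 5.68, Irs2 2.89 and Insr 1.57. The IGF1 receptor was therefore read at a higher level per length than the insulin receptor in these cells. The ratio of Igf1r to Insr per length was 5.85, 5.64 and 5.98 in LUC and 4.76, 6.14 and 6.82 in the libraries labelled Arid3a. It was 2.86, 8.34 and 4.66 in sh-ctrl and 3.56 and 7.63 in shArid3a. With miR-125b it was 8.52, 15.1 and 14.2, above every other library, and in WT it was 2.12, 2.12 and 2.02, below every other library.

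The ratio of Igf1r to Igf2r ordered the groups in another way. It was 6.4, 6.67 and 7.84 in WT, 3.74, 5.25 and 4.11 with miR-125b, and 1.02 to 2.99 in the other 11 libraries. WT and miR-125b thus shared a low level of Igf2r relative to Igf1r, and lay at opposite ends for Igf1r relative to Insr. These ratios were not tested.

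**Figure D2:**
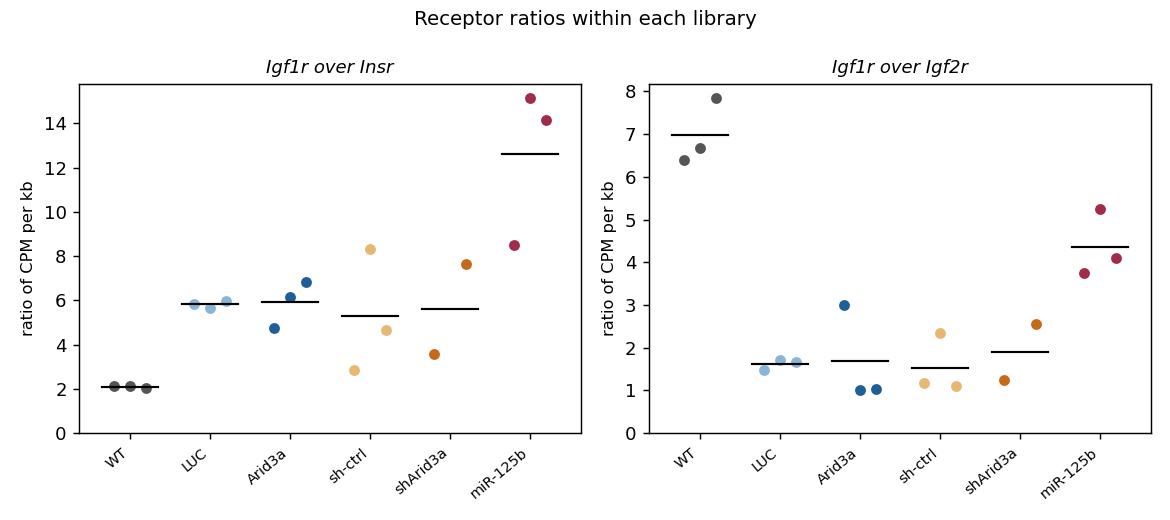
Ratio of Igf1r to Insr (left) and of Igf1r to Igf2r (right), each as CPM per kb (y axis, linear), in every library by group (x axis); points are libraries and lines are group means. The 3 miR-125b libraries had the highest Igf1r to Insr ratios (8.52 to 15.1) and the 3 WT libraries the lowest (2.02 to 2.12), and WT had the highest Igf1r to Igf2r ratios (6.4 to 7.84).

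Insr (ENSMUSG00000005534, chr8:3122061-3279617, minus strand), the insulin receptor, was at 66.4, 85.0 and 98.3 CPM in WT. It was at 21.6, 23.3 and 20.1 in LUC and at 32.4, 33.3 and 26.4 in the libraries labelled Arid3a. In the 10-day groups it was at 21.4, 12.48 and 18.6 in sh-ctrl, 15.5 and 8.0 in shArid3a, and 6.56, 4.53 and 4.27 with miR-125b. The order of group means was WT, Arid3a, LUC, sh-ctrl, shArid3a and miR-125b. LUC overlapped sh-ctrl, and sh-ctrl overlapped shArid3a, while the other neighbours in that order did not overlap.

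Igf1r (ENSMUSG00000005533, chr7:67952827-68233668, plus strand), the receptor of IGF1 and IGF2, was at 172, 219.6 and 242.5 CPM in WT. It was at 154, 160.0 and 147 in LUC and at 189, 250 and 219.9 in the libraries labelled Arid3a. It was at 74.8, 127 and 106 in sh-ctrl, 67.3 and 74.6 in shArid3a, and 68.3, 83.8 and 73.8 with miR-125b. WT and the libraries labelled Arid3a overlapped at the top of the order, and the 3 groups of 10 days lay below both and below LUC. Within those 3, sh-ctrl replicate 1 lay inside the range of miR-125b and close to shArid3a replicate 3.

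Igf2r (ENSMUSG00000023830, chr17:12682406-12769664, minus strand), the receptor that clears IGF2, was at 15.1, 18.5 and 17.4 CPM in WT. It was at 58.6, 52.4 and 49.9 in LUC and at 35.4, 138 and 119 in the libraries labelled Arid3a. It was at 36.0, 30.6 and 54.1 in sh-ctrl, 30.6 and 16.4 in shArid3a, and 10.3, 8.97 and 10.1 with miR-125b. It is the only one of the 6 readily detected genes whose WT mean lay below those of LUC and sh-ctrl. Replicate 1 of the libraries labelled Arid3a was below all LUC libraries while replicates 2 and 3 were above them. That library also had the highest sum of mast cell and basophil markers of its table (1130 CPM against 400 to 534 in the other 5) and the lowest erythroid sum (619 against 726 to 1330). Its megakaryocyte and platelet sum was 4820 CPM against 3090 to 3580 in the other 5, its endothelial sum 13.3 against 3.08 to 6.48, and its stromal sum 12.9 against 29.9 to 35.4. Their part in the level of Igf2r was not tested.

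The antisense RNA Airn, which silences the paternal Igf2r allele in mouse, overlaps the Igf2r gene but none of its exons, and the use of strand in counting is not stated. Airn was at 3.08 to 3.97 CPM in LUC, 1.56, 10.1 and 5.97 in the libraries labelled Arid3a, 2.50 to 4.80 in sh-ctrl, 2.13 and 3.60 in shArid3a and 1.03 to 2.03 with miR-125b. In WT it had 0, 0 and 4 counts. Airn and Igf2r were both lowest in replicate 1 among the libraries labelled Arid3a, and both low with miR-125b and in WT.

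Irs1 (ENSMUSG00000055980, chr1:82233101-82291416, minus strand) had 0 to 8 counts per library and at most 0.22 CPM, and it was at 0 in WT and in shArid3a. Irs2 (ENSMUSG00000038894, chr8:10984681-11008458, minus strand) was the insulin receptor substrate read in these cells. Irs2 was at 23.7, 34.3 and 36.8 CPM in WT, 17.2, 19.4 and 18.3 in LUC and 14.7, 19.1 and 19.1 in the libraries labelled Arid3a. It was at 13.4, 17.5 and 29.1 in sh-ctrl, 6.67 and 1.90 in shArid3a, and 0.43, 4.83 and 2.93 with miR-125b, where the lowest library had 12 counts. All shArid3a and miR-125b libraries lay below all others, and they overlapped each other. Both adaptors carry TGTTTTG near the RefSeq start (shown above), and only Irs2 was expressed above a few counts. The transcript 9530052E02Rik overlaps exons of Irs2 on the other strand and had 0 to 6 counts.

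Pik3r1 (ENSMUSG00000041417, chr13:101680563-101768217, minus strand), the PI3-kinase regulatory subunit, was at 109, 144 and 148 CPM in WT. It was at 77.8, 70.4 and 78.9 in LUC, 91.6, 119 and 109 in the libraries labelled Arid3a, and 59.2, 64.8 and 73.6 in sh-ctrl. It was at 47.0 and 40.7 in shArid3a and at 42.3, 60.2 and 60.8 with miR-125b. The range of miR-125b overlapped those of shArid3a and sh-ctrl.

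Foxo3 (ENSMUSG00000048756, chr10:42181841-42276755, minus strand) was at 112, 119 and 136 CPM in WT. It was at 84.1, 85.8 and 82.2 in LUC, 105, 120.4 and 128 in the libraries labelled Arid3a, and 89.8, 73.8 and 93.2 in sh-ctrl. It was at 60.1 and 46.9 in shArid3a and 53.7, 78.7 and 81.9 with miR-125b. Of the tested genes Foxo3 had the narrowest ratio of highest to lowest group mean, and like Pik3r1 its lowest mean was that of shArid3a. With library totals in place of TMM the order of the group means changed for Foxo3 alone, between sh-ctrl and LUC.

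**Figure D3:**
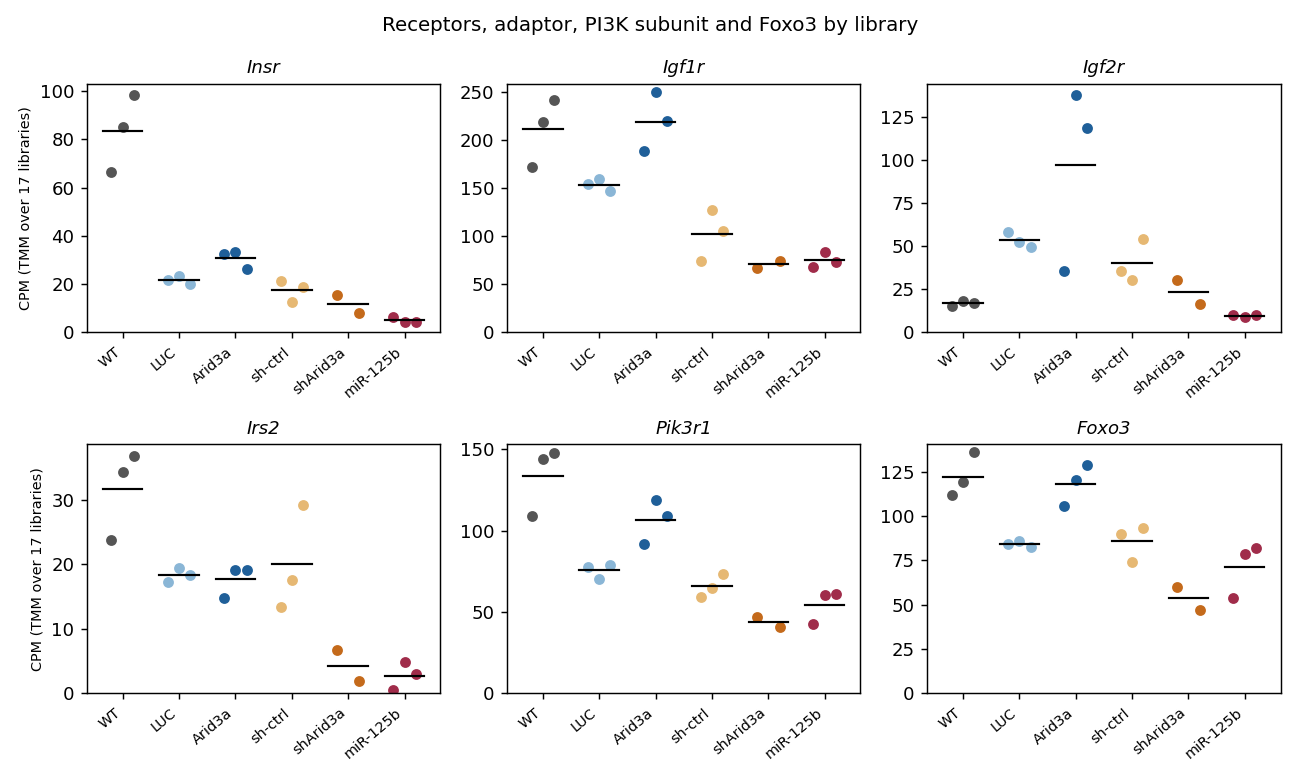
CPM (y axis, linear from 0; TMM over 17 libraries) of Insr, Igf1r, Igf2r, Irs2, Pik3r1 and Foxo3 in each library by group (x axis); points are libraries and lines are group means. Irs2 was lowest in shArid3a and miR-125b (0.43 to 6.67 CPM), Igf2r and Insr were lowest with miR-125b (8.97 to 10.3 and 4.27 to 6.56 CPM), and 1 library labelled Arid3a lay far below the other 2 for Igf2r (35.4 against 119 and 138 CPM).

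Set against LUC, the Arid3a label asked what the Arid3a transgene changes after 48 h. None of the 6 genes passed the test (0 of 6; edgeR called 0 of 13495 genes, 0%, and 2885 had an unadjusted p under 0.05). Insr, Igf1r, Pik3r1 and Foxo3 were each higher in all 3 libraries labelled Arid3a than in any LUC library, where 13% of all genes tested lay apart in that direction. Their log2 fold changes were close to one another: 0.50 (SE 0.12) for Insr, 0.51 (SE 0.10) for Igf1r, 0.49 (SE 0.10) for Pik3r1 and 0.49 (SE 0.08) for Foxo3, with edgeR adjusted p of 0.0962, 0.0877, 0.0890 and 0.0774. Igf2r had 0.85 (SE 0.43, adjusted p = 0.300) and overlapping groups, and Irs2 had −0.05 (SE 0.13, adjusted p = 0.832).

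The outcome of this comparison turned on 1 library and on the tool. With Arid3a replicate 1 left out, edgeR called 5 of the 6 genes higher, where 12.7% of all genes were called higher. The log2 fold changes were then 0.46 for Insr (adjusted p = 0.0192), 0.61 for Igf1r (0.000983), 1.26 for Igf2r (0.000297), 0.59 for Pik3r1 (0.00123) and 0.56 for Foxo3 (0.00085), and that of Irs2 became 0.06 (0.708). Over 14 alternatives their adjusted p reached 0.375 for Insr, Igf1r, Pik3r1 and Foxo3, 0.583 for Igf2r and 0.978 for Irs2. With all libraries, DESeq2 called Insr, Igf1r, Pik3r1 and Foxo3 higher, where it called 5.6% of all genes higher. The marker sums of the left-out library stood apart, as described above. LUC replicate 3 also stood apart, with a myeloid sum of 146 CPM against 8.62 to 24.4 in the other LUC and Arid3a libraries. The part of either in these calls was not tested.

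The comparison of shArid3a with sh-ctrl asked what a lowered level of Arid3a changes over 10 days. All 6 genes had a negative fold change, where the median of all genes was −0.02 (−0.22 with library totals), and none passed the test (0 of 6; edgeR called 12 of 14004 genes, 0.0857%, and 3616 had an unadjusted p under 0.05). Igf1r, Igf2r, Irs2, Pik3r1 and Foxo3 were lower in both shArid3a libraries than in any sh-ctrl library, where 22.2% of all genes lay apart in that direction. The nearest libraries were almost tied for Igf2r (30.57 CPM in shArid3a, 30.58 in sh-ctrl) and close for Igf1r (74.57 and 74.83). Irs2 had the largest difference, at −2.22 on the log2 scale (SE 0.82, adjusted p by edgeR = 0.138). Foxo3 had −0.69 (SE 0.21, adjusted p = 0.110) and Pik3r1 −0.60 (SE 0.19, adjusted p = 0.114). Igf2r had −0.78 (SE 0.31, adjusted p = 0.151), Igf1r −0.55 (SE 0.21, adjusted p = 0.142) and Insr −0.59 (SE 0.35, adjusted p = 0.320). DESeq2 called Pik3r1 and Foxo3 lower, where it called 6.13% of all genes lower, and edgeR without a filter on low counts called these and Irs2, where it called 3.35% lower. Stromal markers summed to 24.6 and 31.5 CPM in shArid3a against 33.9 to 70.0 in sh-ctrl, and endothelial markers to 11.5 and 11.7 against 16.8 to 20.3, with Cdh5, Col3a1 and Dcn at 0 in both groups. The other 7 marker sums overlapped, and the part of these shifts in the 6 genes was not tested.

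miR-125b was set against sh-ctrl to ask which genes the microRNA changes over 10 days, a comparison that uses the same 3 controls as the hairpin comparison. Igf2r, Insr and Irs2 fell and passed the test: 3 of 6 were called, where 24.4% of all 14004 genes were called and 12.2% were called lower. Mean Igf2r was 40.2 ± 12.3 CPM in sh-ctrl and 9.78 ± 0.707 with miR-125b (SD, n = 3 per group; log2 fold change −2.05, SE 0.28, adjusted p by edgeR = 0.00432). For Insr the means were 17.5 ± 4.58 and 5.12 ± 1.26 CPM (log2 fold change −1.79, SE 0.32, adjusted p by edgeR = 0.00784). For Irs2 they were 19.98 ± 8.17 and 2.73 ± 2.21 CPM (log2 fold change −2.87, SE 0.72, adjusted p by edgeR = 0.0203). Over all genes called, 49.8% were higher, or 26.6% with library totals in place of TMM, which moved the median of all genes from −0.03 to −0.22. In each of Igf2r, Insr and Irs2 all miR-125b libraries lay below all sh-ctrl libraries, where 3216 of all 14004 genes lay apart in that direction. Igf2r and Insr were called in 17 of 17 alternatives. Irs2 was called in 15, and lost without sh-ctrl replicate 3 (−2.52, adjusted p = 0.0778) and without miR-125b replicate 3 (−2.93, adjusted p = 0.0518), with adjusted p from 5.54e-07 to 0.0778 over all of them.

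The other 3 genes were not called. Igf1r had −0.46 (SE 0.18, edgeR adjusted p = 0.0855), and this side of the threshold was not kept throughout. With the replicate number as a block, the value was −0.44 with an edgeR adjusted p of 0.0460. Without sh-ctrl replicate 1 it was −0.66 with 0.0208. Over 17 alternatives, 4 called Igf1r, and adjusted p ran from 0.0208 to 0.248. Pik3r1 had −0.29 (SE 0.17, adjusted p = 0.222) and Foxo3 −0.27 (SE 0.19, adjusted p = 0.294). The 3 genes that fell past the threshold held no match to the seed. Igf1r, Pik3r1 and Foxo3, which were not called, each held a single 7mer (shown above). Among genes with a UTR of like length, 46.1% had a match for Pik3r1 and 48.3% for Foxo3, and the shares for the other 4 are given above. The part of such matches in the calls was not tested.

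Some markers of cell types were also called with miR-125b, where 12.1% of all genes were called higher and 12.2% lower. Mpo, Elane and Lyz2 of the myeloid list (3 of 6 tested) and Mcpt8 and Prss34 of the mast cell and basophil list (2 of 12 tested) were called higher. Mcpt8 was at 48.9, 0.97 and 1.73 CPM with miR-125b. Of 15 megakaryocyte and platelet markers, 7 were called lower and 1 higher, and the summed level of that list was 3630 to 4640 CPM against 3870 to 5620 in sh-ctrl. Erythroid markers summed to 394 to 423 CPM against 603 to 904, and 3 of 11 tested were called lower. Myeloid markers summed to 101 to 184 CPM against 61.3 to 112, with Fcnb at 0 with miR-125b and Ly6c2, S100a9, Cebpe and Csf3r at 0 in sh-ctrl. Mast cell and basophil markers summed to 738, 316 and 308 CPM against 206 to 462, so the ranges overlapped. Stromal markers summed to 50.8 to 140 against 33.9 to 70.0, with 0 of 3 stromal genes called. The hepatoblast markers Afp and Apoa2 were called higher, in a list that summed to 4.44 to 6.44 CPM against 0.834 to 1.44. Endothelial and macrophage sums overlapped sh-ctrl, with Cdh5 and C1qb at 0 in both groups. The part of these shifts in the levels of Igf2r, Insr and Irs2 was not tested.

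Between miR-125b and shArid3a a direct test does not use the sh-ctrl levels. The sh-ctrl libraries still entered the fit and its estimate of the spread. In a fit of only the groups compared, edgeR called 131 of 13325 genes. None of the 6 genes was called, where edgeR called 1.35% of all genes (189 of 14004; 2033 had an unadjusted p under 0.05). Igf2r had −1.27 (SE 0.30, edgeR adjusted p = 0.0713) and Insr −1.21 (SE 0.35, adjusted p = 0.132). For both, all miR-125b libraries lay below both shArid3a libraries, where 2158 of all 14004 genes lay apart in that direction. DESeq2 and edgeR without a filter on low counts called both lower, where they called 2.4% and 1.53% of all genes lower, and Igf2r was also called without shArid3a replicate 3 (−1.67, adjusted p = 0.0401, in a range of 0.000446 to 0.523 over 17 alternatives). Irs2 had −0.66 (SE 0.76, adjusted p = 0.767) and became 0.55 without shArid3a replicate 1. Igf1r had 0.09 (SE 0.20, adjusted p = 0.901), Pik3r1 0.31 (SE 0.19, adjusted p = 0.496) and Foxo3 0.41 (SE 0.21, adjusted p = 0.399), with overlapping groups. Of the marker genes, Mpo (7.91) and Lyz2 (2.52) of the myeloid list, the stromal gene Pdgfrb (1.32) and the platelet gene Gp1bb (1.09) were called higher with miR-125b. Erythroid markers summed to 394 to 423 CPM against 593 and 715 in shArid3a, myeloid markers to 101 to 184 against 39.6 and 75.3, and stromal markers to 50.8 to 140 against 24.6 and 31.5. Endothelial, hepatoblast and macrophage sums, each at 16.8 CPM or less, were also higher in all miR-125b libraries than in both shArid3a libraries. Their part in the levels of Igf2r and Insr was not tested.

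**Figure D4:**
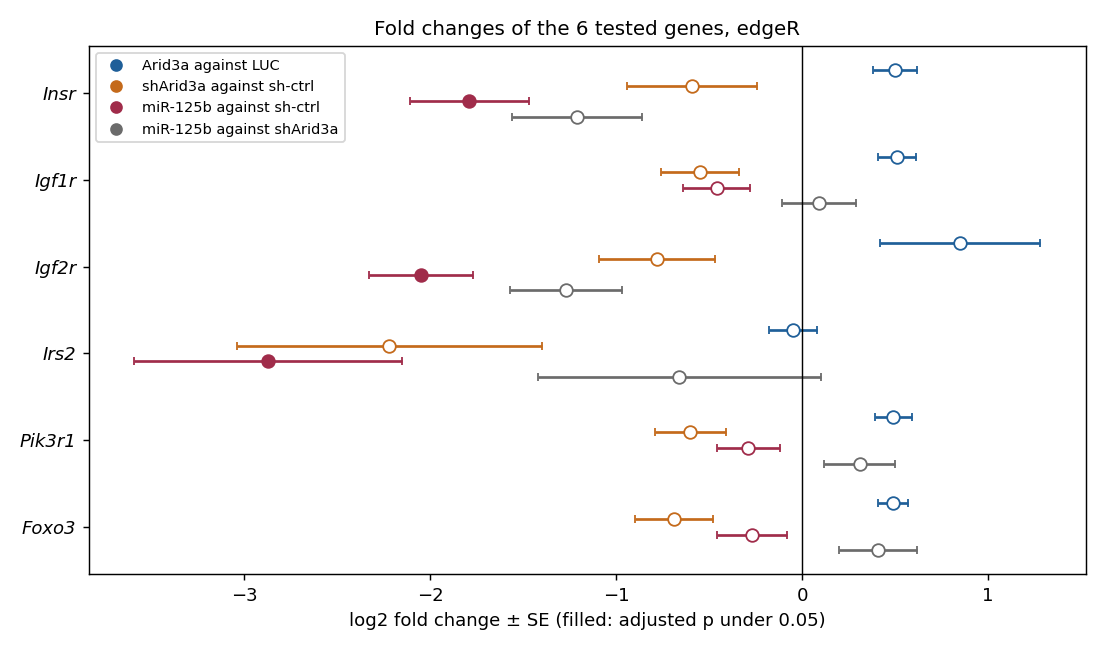
Log2 fold change (x axis) with its SE for the 6 tested genes (y axis) in 4 comparisons, marked by colour; filled points have an edgeR adjusted p under 0.05 and open points do not. Filled points are those of Igf2r (−2.05), Insr (−1.79) and Irs2 (−2.87) in miR-125b against sh-ctrl; the miR-125b and shArid3a comparisons against sh-ctrl share their controls.

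Other genes of the pathway were described through 6 lists. With miR-125b against sh-ctrl, the receptor adaptors held 7 genes called lower and 0 higher of 14 tested, with a median log2 fold change of −0.63 where that of all genes was −0.03. Of all genes tested, 12.2% were called lower and 12.1% higher. The adaptors included Shc1 (−0.62, adjusted p = 0.00899), which links receptors to the RAS pathway, the linker Crkl (−1.11, 0.0173) and the docking protein Gab2 (−0.71, 0.0203). Among 32 genes of PI3-kinase, AKT and mTOR, 9 were called lower and 2 higher (median −0.09). Eif4ebp2, a repressor of translation under mTOR control, had −1.55 (adjusted p = 0.00609), the catalytic subunit Pik3cd −0.86 (0.00782) and the AKT-activating kinase Pdpk1 −0.87 (0.0108). Rheb, the activator of mTOR complex 1, rose by 0.57 (0.0225) and Akt1s1, an mTOR inhibitor, by 0.55 (0.0190), and neither was called when library totals replaced TMM.

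Brakes on the pathway were also lower more often than higher with miR-125b, 8 against 2 of 21 tested (median −0.44). With the replicate block the counts were 9 against 2, and those of no other list moved in this comparison. Grb10, an imprinted adaptor that inhibits the insulin and IGF1 receptors, went from 70.0, 141 and 82.2 CPM in sh-ctrl to 38.2, 35.8 and 24.3 (log2 fold change −1.60, adjusted p = 0.00621). Grb10 was also lower than in shArid3a (−1.56, adjusted p = 0.0286), which was at 99.4 and 93.2 CPM, and this call was lost without either shArid3a library and without miR-125b replicate 2 or 3. In the libraries labelled Arid3a it stood at 81.7, 305 and 254 CPM, low in replicate 1 as Igf2r was. Enpp1, an inhibitor of the insulin receptor, had −3.48 (adjusted p = 0.00681) at 2.35 CPM or less in every library, and the tyrosine phosphatase Ptpn1 had −0.70 (0.0107). The phosphatase Ptpn2 rose by 0.60 (0.0194) and the cytokine signalling inhibitor Socs2 by 0.42 (0.0317). With library totals 1 brake was called higher, and without miR-125b replicate 1, or sh-ctrl replicate 3, none was.

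FOXO factors and their targets held 5 genes called lower and 0 higher of 25 tested, or 20%, beside the 12.2% of all genes (median −0.20). Foxo1 went from 7.25, 5.97 and 7.24 CPM in sh-ctrl to 2.10, 2.52 and 1.98 with miR-125b (log2 fold change −1.64, adjusted p = 0.00651), so the paralog of Foxo3 passed the test where Foxo3 did not; the difference between them was not tested. The cyclin Ccng2 had −1.47 (adjusted p = 0.00519) and the antiproliferative gene Btg1 −0.82 (0.00671). Ligands and binding proteins held 1 gene called higher and 1 lower of 6 tested (median 1.00). Igfbp4, which sequesters IGFs, rose from 17.7, 2.92 and 4.77 CPM in sh-ctrl to 60.3, 59.4 and 61.3 (log2 fold change 2.82, adjusted p = 0.0159), below the 332 to 378 CPM of WT. The secreted protease Htra1 had −3.87 (0.0190) and lay at 2.70 CPM or less.

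IGF messenger RNA-binding proteins and imprinted neighbours held 3 genes called lower and 0 higher of 7 tested (median −1.25). Lin28b, a fetal RNA-binding protein that blocks let-7 maturation, had −1.37 (adjusted p = 0.00858), Igf2bp3 −1.25 (0.0144) and Airn −1.52 (0.0286). Lin28b was also lower with miR-125b than with shArid3a (−1.34, 0.0462), a call lost with library totals, without sh-ctrl replicate 2 or 3, without either shArid3a library and without miR-125b replicate 2 or 3. The counts of these 6 lists against sh-ctrl leaned on sh-ctrl replicate 3, as those of all genes did. When it was left out, 425 of 13840 genes were called lower and 309 higher, against 1714 and 1700 of 14004 with all libraries. In the lists, the genes called lower without sh-ctrl replicate 3 were 1 adaptor, 2 genes of PI3-kinase, AKT and mTOR, 3 brakes, 3 FOXO genes, 2 messenger RNA-binding or imprinted genes and 0 ligands and binding proteins. Of any of the 6 lists, 0 genes were called higher. Without miR-125b replicate 1, 3 adaptors and 3 FOXO genes were called lower and 2 FOXO genes higher, where 919 of 13925 genes were called lower and 847 higher. Without miR-125b replicate 3, 4 adaptors and 5 brakes were called lower, where 1019 of 13913 genes were.

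In the other comparisons against a control the same lists held 0 called genes in edgeR with the filter and all libraries. Without a filter on low counts, edgeR called 1 adaptor and 1 brake lower in the libraries labelled Arid3a, where 33 of 22152 genes were called lower. In shArid3a, also without the filter, it called 4 brakes, 3 genes of PI3-kinase, AKT and mTOR, 3 FOXO genes and 2 adaptors lower, where 3.35% of all genes were called lower. With the filter but without miR-125b replicate 1, it called 2 FOXO genes and 1 brake lower in shArid3a, where 210 of 13925 genes were. With all libraries and the filter, the list medians were −0.01 to 0.28 in the libraries labelled Arid3a (0.01 for all genes) and −0.60 to −0.29 in shArid3a (−0.02 for all genes). In the first comparison, DESeq2 called 4 adaptors, 6 genes of PI3-kinase, AKT and mTOR and 1 brake higher, and 1, 2 and 1 of them lower, where it called 5.6% of all genes higher and 4.49% lower. In the second, it called 7 FOXO genes, 4 genes of PI3-kinase, AKT and mTOR, 3 brakes and 2 adaptors lower, and 1 gene of PI3-kinase, AKT and mTOR and 1 ligand or binding protein higher, where it called 6.13% of all genes lower and 5.32% higher. With Arid3a replicate 1 left out, 14 genes of PI3-kinase, AKT and mTOR, 7 adaptors, 7 brakes, 2 messenger RNA-binding or imprinted genes, 1 ligand or binding protein and 0 FOXO genes were called higher, where 12.7% of all genes were. Called lower in that fit were 3, 1, 1, 1, 0 and 2 genes of these lists in the same order, where 10.5% of all genes were.

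**Figure D5:**
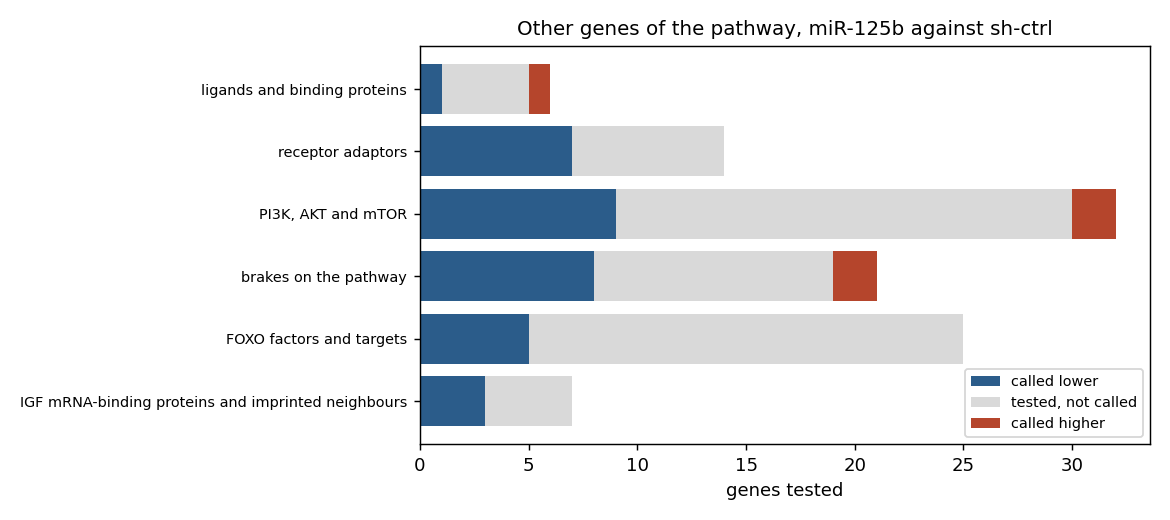
Number of genes tested (x axis) in 6 lists of pathway genes (y axis) in miR-125b against sh-ctrl, split into those called lower, not called and called higher by edgeR at an adjusted p under 0.05. Genes called lower outnumber those called higher in 5 of the 6 lists (7 against 0 of 14 adaptors, 8 against 2 of 21 brakes), and the ligand list holds 1 of each.

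Of the 9 genes, Igf2r had the smallest adjusted p with miR-125b, and the genes whose log2 CPM followed it most closely over the 17 libraries were looked up among 8548 genes. They were Mtss1 (Pearson r = 0.967), Podxl (0.964), Fam78a (0.964), Mical3 (0.959) and Tpcn1 (0.951). Podxl, which encodes the sialomucin podocalyxin, was at 110, 282 and 267 CPM in the libraries labelled Arid3a, 134 to 138 in LUC, 32.0 to 39.7 with miR-125b and 37.4 to 48.6 in WT. It was low in the same Arid3a library, in miR-125b and in WT, as Igf2r was. Because these genes were picked for following Igf2r over the same libraries, this likeness is no separate observation. The libraries share groups and tables, so these correlations are a description.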

How the data were processed

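Total RNA of 17 libraries was sequenced. The values deposited by the authors are read counts per gene, not normalized, in 3 tables, with gene lengths alongside. Per the submitters' processing notes the tools were fastp, HISAT2 2.0.5 and featureCounts with the build mm10, and the use of strand is not given in the sources used here. Tables were joined by Ensembl identifier. The 9 genes, the pathway and marker lists and the tests were chosen with earlier results of these data known.

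Counts were scaled by TMM, filtered by filterByExpr and tested per table with edgeR 4.0.16 in R 4.3.3 (glmQLFit, glmQLFTest), with Benjamini-Hochberg adjustment over all genes tested and a threshold of 0.05. All 3 groups of the knockdown table entered 1 fit, so the comparisons with 2 shArid3a libraries share its spread. The script was checked on simulated data. Gene positions came from GENCODE M21, equal to those of the WT table for all 9 genes, and sequences from RefSeq GRCm38.p6 and GENCODE M21. No shArid3a library with the number 2 was used here.

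Named were the 9 genes, Arid3a and Gata1, from each list up to 3 called genes per direction with the smallest adjusted p and no overlap of the groups, and the 5 genes most alike to the leading gene among those whose mean log2 CPM was 3 or more. H19, Igf2bp1 and Igf2bp2, and the levels of Igf2bp3 and Airn across groups, were chosen after their values were seen. Alternatives were other scalings, DESeq2 1.42.0, other filters (none, or 10 counts in every library), ribosomal RNA-like genes left out, a robust fit, fits of only the groups compared, a replicate block and leaving out each library. Deviations of same-numbered libraries in sh-ctrl and miR-125b correlated at 0.475, 0.165 and 0.455, but miR-125b replicate 2 correlated more with sh-ctrl replicate 3 (0.289). Deviations within a group cancel out, which lowers the values between unlike numbers, so pairing by number is not settled. The blocked value is given where it changes a call among the 9 genes. The replicate block changed the call of Igf1r in miR-125b against sh-ctrl and of no other of the 9 genes. In that comparison it moved the count of 1 pathway list. In miR-125b against shArid3a it gave 1 ligand or binding protein called higher (0 without the block). There it also gave 1 gene of PI3-kinase, AKT and mTOR (0 without) and 2 brakes (1 without) called lower.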

Additional observations from a re-analysis of the deposited data

How the results depend on the processing

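Of 390 alternative fold changes of the 6 tested genes, 361 kept their direction and side of the threshold, 2 lost the call, 24 gained it and 3 turned. Those that turned were small or rested on 1 library: Irs2 in the libraries labelled Arid3a (0.062 without replicate 1, range −0.11 to 0.06 over left-out libraries), Irs2 in miR-125b against shArid3a (0.55 without shArid3a replicate 1, range −1.33 to 0.55) and Igf1r there with a replicate block (−0.044). Arid3a in the libraries labelled Arid3a also turned (−0.019 without replicate 3, up to 0.21). For the libraries labelled Arid3a against LUC, DESeq2 called 1359 genes and 4 of the 6, and no filter on low counts gave 71 and 1. For shArid3a against sh-ctrl, DESeq2 called 1600 genes and 2 of the 6, no filter 1237 and 3, library totals 20 genes, 10 counts in every library 19, a robust fit 19, and the fit without ribosomal RNA-like genes 0 (3567 at an unadjusted p under 0.05). For miR-125b against shArid3a, DESeq2 called 737 genes and 2 of the 6, and no filter 715 and 2. The cause was not tested. Left-out libraries gave 0 to 3198 genes and 0 to 5 of the 6 for Arid3a against LUC (highest without Arid3a replicate 1), and 2 to 306 genes and 0 of the 6 for shArid3a against sh-ctrl (lowest without sh-ctrl replicate 3 or shArid3a replicate 3, highest without miR-125b replicate 1). They gave 734 to 3452 genes and 2 to 4 of the 6 for miR-125b against sh-ctrl (lowest without sh-ctrl replicate 3), and 12 to 329 genes and 0 to 1 of the 6 for miR-125b against shArid3a (lowest without shArid3a replicate 1, highest without miR-125b replicate 1). Where a left-out library leaves 1 shArid3a library, it is assumed to vary like the other groups. With the replicate block, 3687 genes were called for miR-125b against sh-ctrl, 15 for shArid3a against sh-ctrl, 255 for miR-125b against shArid3a and 0 for the libraries labelled Arid3a. Same-numbered libraries of LUC and Arid3a correlated at 0.105, 0.355 and −0.126, and those of sh-ctrl and shArid3a at 0.391 and 0.013. Those of shArid3a and miR-125b correlated at 0.154 and 0.145. Pairing by number is not settled for these groups either. Library totals moved 12 of 54 group levels by more than 1 SD, and of 565 alternative counts of list genes called, 100 moved by over 1.5 times. Depth limits Irs1, at 8 counts or fewer in every library, and the order of the Gata1s groups for Igf1 and Igf2.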
